A study of Mus musculus with 9 samples.

Results

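Sterol and fatty acid synthesis genes were followed in regulatory T (Treg) cells that lack the Hippo pathway kinases Mst1 and Mst2. The set lists 35 genes of the mevalonate pathway, sterol synthesis, fatty acid synthesis, and sterol regulation and transport. A gene entered when a probe set of the array carried its symbol and no other, and of several such probe sets the one with the highest average signal was taken. This gave 32 of the 35 genes, out of 22180 genes measured: 5 of 7 in the mevalonate pathway, 11 of 11 in sterol synthesis, 8 of 9 in fatty acid synthesis and 8 of 8 in regulation and transport. Acat2, Idi1 and Scd2 had no probe set of their own symbol alone and were not analysed here.

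Knockout cells (Mst1/Mst2-KO, 4 arrays) came from C57BL/6 donors with YFP and Cre at the Foxp3 locus and loxP-flanked Stk4 (Mst1) and Stk3 (Mst2). Wild-type cells (WT, 5 arrays) came from C57BL/6 donors with the same Foxp3YFP-Cre allele and no floxed kinase allele named. Either donor marrow was mixed 1:1 with WT CD45.1 marrow in RAG1-/- recipients, and CD45.2+ CD4+ YFP+ cells were sorted 2 months later. Rag1 deficiency leaves the recipients without T and B cells of their own. Cre from the Foxp3 locus acts in cells that express Foxp3, every cell matured beside WT competitors, and the labels give neither ages nor whether arrays represent separate chimeras.

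Mevalonate pathway enzymes turn acetyl-CoA into farnesyl diphosphate, which feeds both sterols and the prenyl groups that anchor small GTPases to membranes. Sterol-poor membranes release the SREBP transcription factors, which SCAP escorts from the endoplasmic reticulum to the Golgi for cleavage and which INSIG proteins hold back. SREBPs then raise transcription of most sterol and fatty acid enzymes, often together with the CCAAT-binding factor NF-Y. In Treg cells, lipid synthesis through the mevalonate pathway is known to accompany activation and to support suppressive function.

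Promoters are shown first, because the genes share a known route of control. Of the 32 genes, 25 matched a RefSeq promoter window (build GRCm38.p6, 250 bases before to 50 bases after the annotated start, first window listed per gene). The 4 sequences below are the 250 bases before the start of the genes with the smallest p-values between KO and WT cells among those 25. Capitals mark the CCAAT box (CCAAT on either strand, so ATTGG on the other) and, in Hmgcs1 alone, the sterol regulatory element searched as TCACNCCAC on either strand. The coordinates are chr11:120824548-120824797 on the minus strand for Fasn, chr3:89454291-89454540 on the plus strand for Pmvk, chr1:169969206-169969455 on the minus strand for Hsd17b7, and chr13:119690101-119690350 on the plus strand for Hmgcs1.
Fasn: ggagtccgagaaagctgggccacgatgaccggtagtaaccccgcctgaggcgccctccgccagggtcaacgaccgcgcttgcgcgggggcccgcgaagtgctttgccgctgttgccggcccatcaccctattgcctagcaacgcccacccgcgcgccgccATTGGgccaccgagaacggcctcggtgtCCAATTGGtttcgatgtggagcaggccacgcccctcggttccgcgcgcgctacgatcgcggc
Pmvk: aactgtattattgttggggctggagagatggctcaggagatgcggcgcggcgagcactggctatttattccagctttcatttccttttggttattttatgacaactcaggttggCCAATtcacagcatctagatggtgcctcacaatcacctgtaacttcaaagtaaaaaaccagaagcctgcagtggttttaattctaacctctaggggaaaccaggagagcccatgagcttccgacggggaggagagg
Hsd17b7: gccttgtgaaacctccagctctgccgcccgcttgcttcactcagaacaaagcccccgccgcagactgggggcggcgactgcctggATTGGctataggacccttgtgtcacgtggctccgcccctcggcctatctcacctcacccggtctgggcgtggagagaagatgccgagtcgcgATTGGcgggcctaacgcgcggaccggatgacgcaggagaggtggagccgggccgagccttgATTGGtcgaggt
Hmgcs1: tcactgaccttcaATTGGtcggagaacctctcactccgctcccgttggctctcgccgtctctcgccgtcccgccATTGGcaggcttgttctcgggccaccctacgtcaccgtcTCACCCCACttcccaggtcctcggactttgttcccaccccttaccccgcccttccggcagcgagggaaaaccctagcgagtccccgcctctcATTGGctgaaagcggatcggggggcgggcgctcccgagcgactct

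The CCAAT box was found in 19 of the 25 windows (76.0%), against 37.9% of the 27025 windows of all genes, and 10 of the 25 (40.0%) held more than 1, against 12.2%. By role, 4 of 4 mevalonate, 8 of 9 sterol, 3 of 6 fatty acid and 4 of 6 regulatory windows held it. In Fasn, a match on each strand overlapped by 2 bases. Only the Hmgcs1 window held the sterol regulatory element in these letters, at 137 bases before the start, and 1.22% of all windows did. These are matches of letters and say nothing of whether a factor binds. Pmvk, whose window held 1 box, has 2 windows listed, and the second was not searched here.

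**Figure D1:**
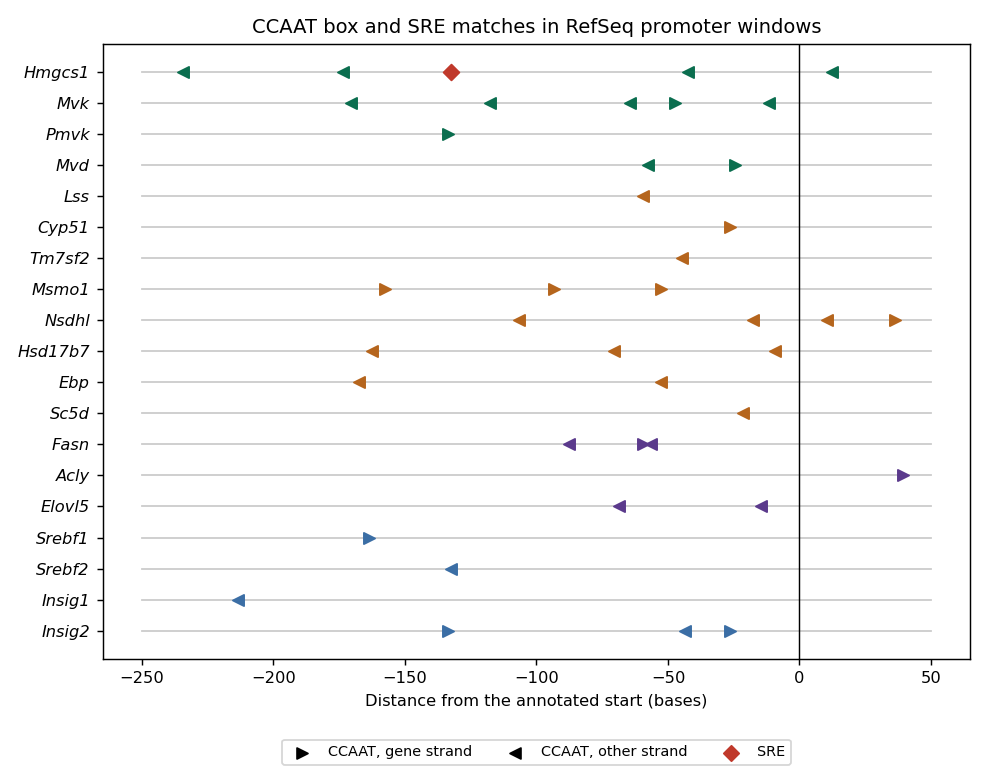
CCAAT boxes (triangles, pointing along the strand of the match) and the 1 sterol regulatory element match (diamond) by distance in bases from the annotated start, for the 19 members with a match. Most matches lie before the start, and mevalonate and sterol genes fill the upper rows.

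Arrays were compared through deposited log2 RMA values, for which each difference is KO minus WT and a difference of 1 is a doubling. All genes were fitted together with limma, and a gene passed at a Benjamini-Hochberg adjusted p under 0.05 over all 22180 genes. Treg cells were described with 7 markers, whose mean log2 value was 9.73 to 9.91 on KO arrays and 10.03 to 10.11 on WT arrays. Cells of both groups were sorted on CD4 and on YFP from the Foxp3 locus, so Foxp3 and Cd4 are no independent check of identity. Foxp3 differed by 0.01, with a 95% interval from -0.13 to 0.15 (10.72 ± 0.092 in KO, SD, n = 4, and 10.70 ± 0.049 in WT, SD, n = 5). Ikzf2 (Helios, -0.72) was the 1 of the 7 that passed, as lower. Cd3e (-0.31), Cd3g (-0.32) and Cd4 (-0.18) were also lower at an unadjusted limma p under 0.05, as were 9.8% of all genes. Il2ra (0.06) and Ctla4 (-0.09) were not. No measured marker of CD8 T cells (2), B cells (7), myeloid cells (10) or NK cells (4) passed in either direction. At an unadjusted p under 0.05, however, 5 of these 23 markers were higher in KO cells (Cd8b1, Cd68, Cd79a, Klrd1 and Itgax), against 5.06% of all genes, and 0 were lower, against 9.8%. Differences were positive for 21 of the 23, among them 7 of 7 B cell markers. The part of such cells in the lower values of lipid genes was not tested. Stk4 was 7.64 in KO and 7.91 in WT cells (limma adjusted p = 0.146, unadjusted p = 0.00893). Every KO value of Stk4 was under every WT value, as in 4.4% of all genes. Whether its probe set reads the floxed exons was not checked, and Stk3 is not analysed here. Because the samples are bulk, fewer cells of a type and less RNA per cell cannot be told apart.

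Across the set, lower values in KO cells were common and small. Fasn, the fatty acid synthase, and Pmvk, phosphomevalonate kinase, fell in KO cells. Against the 1.89% of all genes that passed as lower, this was 2 of 32 members. None rose, against 0.428% of all genes, and 30 did not pass. At an unadjusted p under 0.05, 8 of 32 (25.0%) were lower, against 9.8% of all genes, and 0 were higher, against 5.06%. Differences were negative in 25 of 32 (78.1%), against 49.3% of all genes. The median difference was -0.15, against 0.0023 over all genes. Brighter genes leaned lower too. In a fit of the 11322 genes with a mean above the median of all probe sets (4.047), 16.8% were lower at an unadjusted p under 0.05. In that fit 5.03% passed as lower, and the median difference was -0.04. Of the 31 members in it, 8 were lower at an unadjusted p under 0.05 and 3 passed, with a median of -0.14. No member differed by 1.5-fold or more, which 1.61% of all genes did as lower and 0.55% as higher. Earlier results of these data were known when the set was drawn up, so these counts describe it and test nothing about it as a set.

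**Figure D2:**
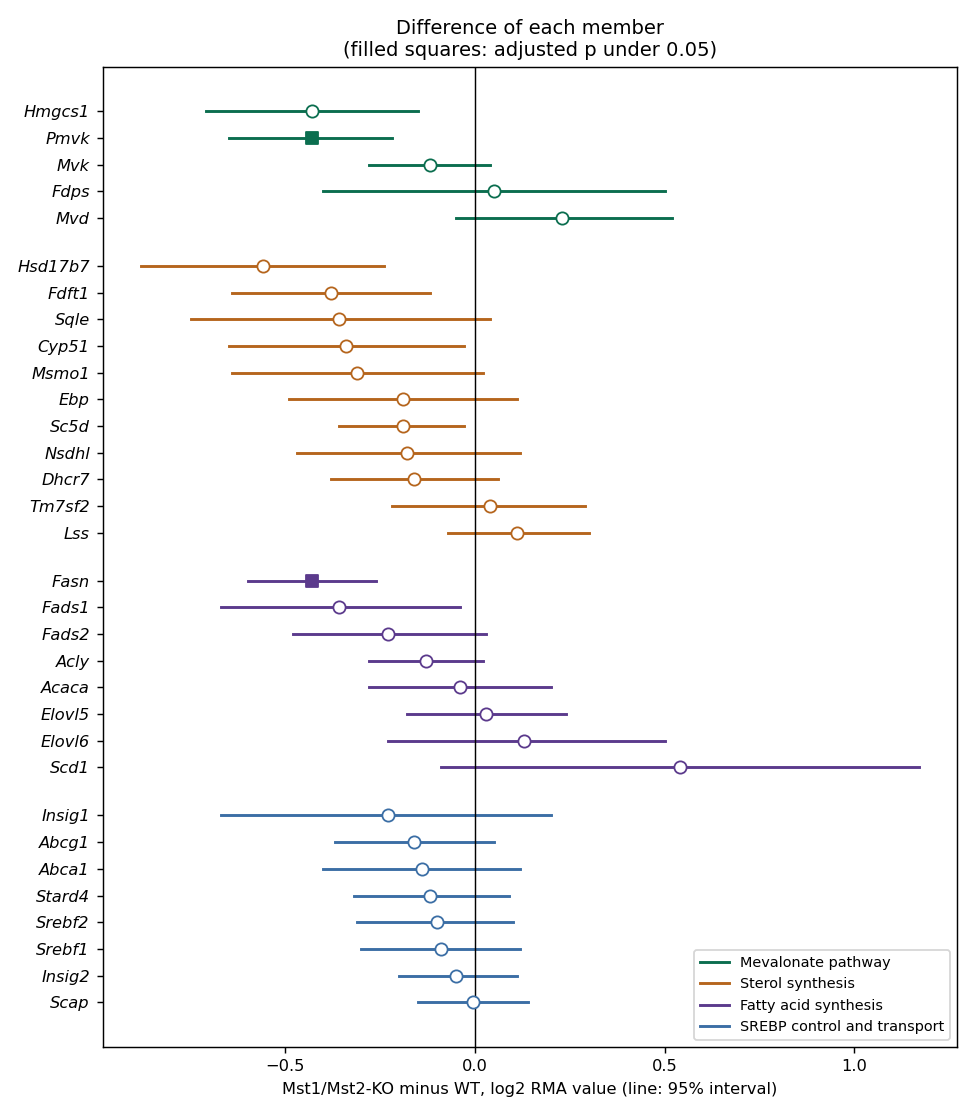
Difference of each of the 32 members (KO minus WT, log2 RMA value) with its 95% interval from limma, grouped by role, with filled squares for the 2 genes that passed. Most points lie left of 0 in every group, and only the squares of Pmvk and Fasn are filled.

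In the mevalonate pathway, Pmvk fell and the others did not pass. Hmgcs1, the cytosolic synthase that makes HMG-CoA, had values of 6.49, 6.40, 6.08 and 5.95 on KO arrays 1 to 4, against 6.77, 6.55, 6.89, 6.50 and 6.59 on WT arrays 1 to 5. Every KO value was under every WT value, narrowly on KO array 1, with KO arrays 3 and 4 farthest down. The difference was -0.43 ± 0.13 (SE; limma adjusted p = 0.122, unadjusted p = 0.00608), and the 95% interval ran from -0.71 to -0.15. Pmvk, which adds the second phosphate to mevalonate, had values of 5.96, 5.97, 5.67 and 6.18 on KO arrays, against 6.44, 6.24, 6.39, 6.40 and 6.44 on WT arrays. Its groups did not overlap either, although KO array 4 came within 0.1 of WT array 2. Pmvk was 1.35-fold lower in KO cells (difference -0.43 ± 0.096, SE, limma adjusted p = 0.0486).

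The call for Pmvk sits at the edge of the threshold. It passed in 1 of 9 fits that each left out an array, the one without KO array 4 (limma adjusted p = 0.018), and reached 0.113 at most in the other 8. Over all 18 alternatives the adjusted p ran from 0.018 to 0.171 and the difference stayed negative in each.

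Mvk, which phosphorylates mevalonate in the step before, averaged 4.70 ± 0.092 in KO cells (SD, n = 4) and 4.83 ± 0.094 in WT cells (SD, n = 5). Its difference of -0.12 did not pass, and 3 of 4 KO arrays lay below the lowest WT array. Mvd, the decarboxylase that makes isopentenyl diphosphate, pointed the other way: 5.64, 6.06, 5.60 and 6.02 on KO arrays, against 5.77, 5.66, 5.25, 5.63 and 5.66 on WT arrays. KO arrays 2 and 4 exceeded every WT value, and the other KO arrays lay within the WT range (difference 0.23, 95% interval from -0.05 to 0.52). Fdps makes farnesyl diphosphate, the branch point towards sterols and prenyl groups. It varied widely within both groups, from 6.57 to 7.27 on KO arrays and from 6.40 to 7.24 on WT arrays, and its difference of 0.05 changed sign without KO array 2, WT array 4 or WT array 5.

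Sterol synthesis enzymes mostly had lower values in KO cells, and no single one passed. Of the 11 enzymes 0 passed, against 1.89% of all genes as lower and 0.428% as higher. Differences were negative for 9 (81.8%), against 49.3% of all genes. At an unadjusted p under 0.05, 4 (36.4%) were lower: Hsd17b7, Fdft1, Sc5d and Cyp51. That share was 9.8% over all genes and 16.8% among genes above the median of all probe sets. The median difference was -0.19. Hsd17b7, the ketoreductase that acts during removal of the sterol C4 methyl groups, differed most, with values of 4.80, 4.48, 4.59 and 5.12 on KO arrays and 5.51, 5.24, 5.55, 5.12 and 5.12 on WT arrays. KO array 4 reached the lowest WT values, and the other 3 KO arrays lay below them. The difference was -0.56 ± 0.14 (SE; limma adjusted p = 0.0792), and without KO array 4 it was -0.68 and passed (limma adjusted p = 0.0263).

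Fdft1, the squalene synthase that commits farnesyl diphosphate to sterols, had values of 6.84, 7.12, 6.53 and 7.02 on KO arrays and 7.20, 7.25, 7.45, 7.12 and 7.27 on WT arrays. KO array 2 equalled the lowest WT array to 2 decimals and the other KO arrays lay under it (difference -0.38 ± 0.12, SE, limma adjusted p = 0.142). Sqle, squalene epoxidase, is a rate-limiting step of the late pathway. Its values were 5.92, 6.17, 5.34 and 6.21 on KO arrays and 6.57, 6.16, 6.43, 6.13 and 6.04 on WT arrays. KO arrays 2 and 4 lay inside the WT range, KO array 1 just under it and KO array 3 far under it (difference -0.36, 95% interval from -0.75 to 0.04). Without KO array 3 the difference of Sqle was -0.17.

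Cyp51, the lanosterol demethylase, averaged 5.32 ± 0.33 in KO cells (SD, n = 4) and 5.66 ± 0.13 in WT cells (SD, n = 5), with KO array 2 (5.73) again among the WT values. Msmo1, the oxidase of the sterol C4 methyl groups, averaged 5.78 ± 0.29 in KO cells and 6.09 ± 0.23 in WT cells, and 3 of 4 KO arrays lay below the WT range. Sc5d, the desaturase of the last steps, had a narrow spread in both groups (7.16 ± 0.096 in KO, 7.35 ± 0.10 in WT), and its difference of -0.19 had an unadjusted limma p of 0.0242. Nsdhl, Ebp and Dhcr7, which act in C4 demethylation, double-bond isomerisation and the last reduction to cholesterol, had differences from -0.19 to -0.16 and adjusted p of 0.504 or more. Without KO array 4 the differences of Nsdhl and Ebp were -0.03 and -0.06, and without KO array 1 that of Dhcr7 was -0.09. Lss, the lanosterol synthase (0.11), and Tm7sf2, a sterol reductase (0.04), were the 2 positive differences, and Tm7sf2 turned negative without KO array 3.

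Among KO arrays the sterol genes did not move evenly. KO arrays 1, 3 and 4 lay below the lowest WT value for 9, 8 and 8 of the 11 sterol genes, while KO array 2 did so for 1 and lay above the highest WT value for 3. Set against the other WT arrays, WT arrays 1 to 5 lay below for 0, 0, 0, 3 and 5 of the 11. They lay above for 7, 0, 3, 0 and 0. The same counts over all genes were not made, so these have no background. The median deviation from the WT mean was -0.35, 0.07, -0.16 and -0.24 on KO arrays 1 to 4. On WT arrays 1 to 5 it was 0.16, -0.06, 0.06, -0.10 and -0.09. WT array 1 had the highest value of all 9 arrays for 4 of the 11 genes, and WT array 3 for 3. The SD was larger among KO than among WT arrays for 10 of 11 sterol genes and for 23 of 32 members (71.9%), against 59.2% of all genes. Over members the median SD was 0.25 in KO and 0.11 in WT cells, and over all genes it was 0.14 in KO and 0.12 in WT cells.

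Leaving out KO array 2 gave 12 members lower at an unadjusted p under 0.05, where 11.0% of all genes were lower. Without KO array 3 there were 6, where 8.72% of all genes were lower. Heat shock genes Hspa1a and Hspa1b, which stress can induce, differed between arrays of both groups. Their mean was 3.70, 10.13, 9.91 and 8.56 on KO arrays and 5.94, 3.06, 9.46, 9.89 and 10.21 on WT arrays. With that mean as a covariate the median difference of members was -0.15 and 8 members were again lower at an unadjusted p under 0.05.

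**Figure D3:**
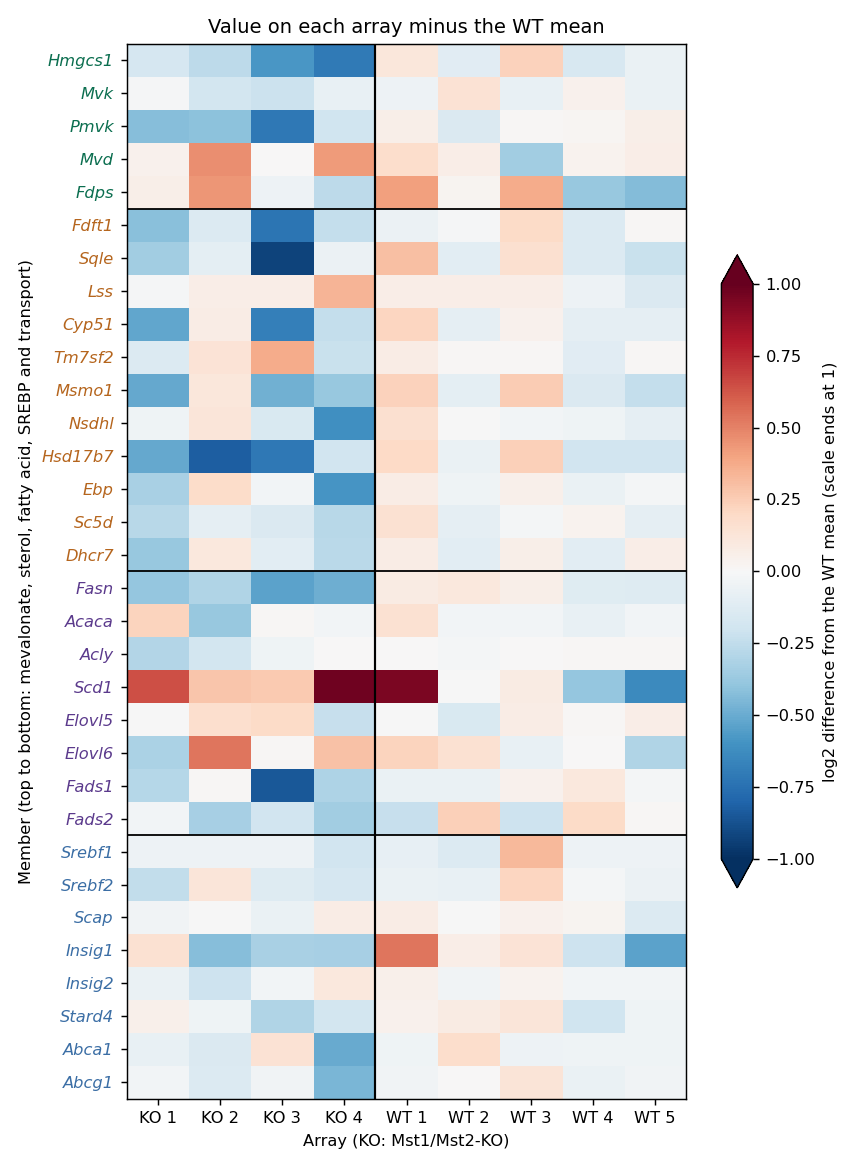
Value of each of the 32 members on each array minus that gene's WT mean (log2, colour scale from -1 to 1), with KO arrays left of WT arrays and the 4 roles from top to bottom. KO arrays 1, 3 and 4 are mostly blue in the sterol block, KO array 2 is mixed there, and Scd1 is deep red on KO array 4 and WT array 1.

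In fatty acid synthesis, Fasn fell and the other 7 measured genes did not pass. Fasn builds palmitate from acetyl-CoA and malonyl-CoA. Its values were 6.59, 6.68, 6.44 and 6.49 on KO arrays and 7.06, 7.08, 7.04, 6.86 and 6.85 on WT arrays. The groups did not overlap, as in 3 of the 32 members (9.38%, Fasn with Pmvk and Hmgcs1), against 4.4% of all genes lying lower in KO cells without overlap. No member lay higher without overlap, as 1.76% of all genes did. Fasn was 1.35-fold lower in KO cells (difference -0.43 ± 0.078, SE, limma adjusted p = 0.0205, 95% interval from -0.60 to -0.26).

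Among the members, Fasn was called most often across the 18 alternatives, 12 times. It passed in 4 of 9 fits that each left out an array, those without KO array 2, KO array 4, WT array 4 or WT array 5. Its adjusted p over those 9 fits ran from 0.0188 to 0.0594, and the difference from -0.47 to -0.39.

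**Figure D4:**
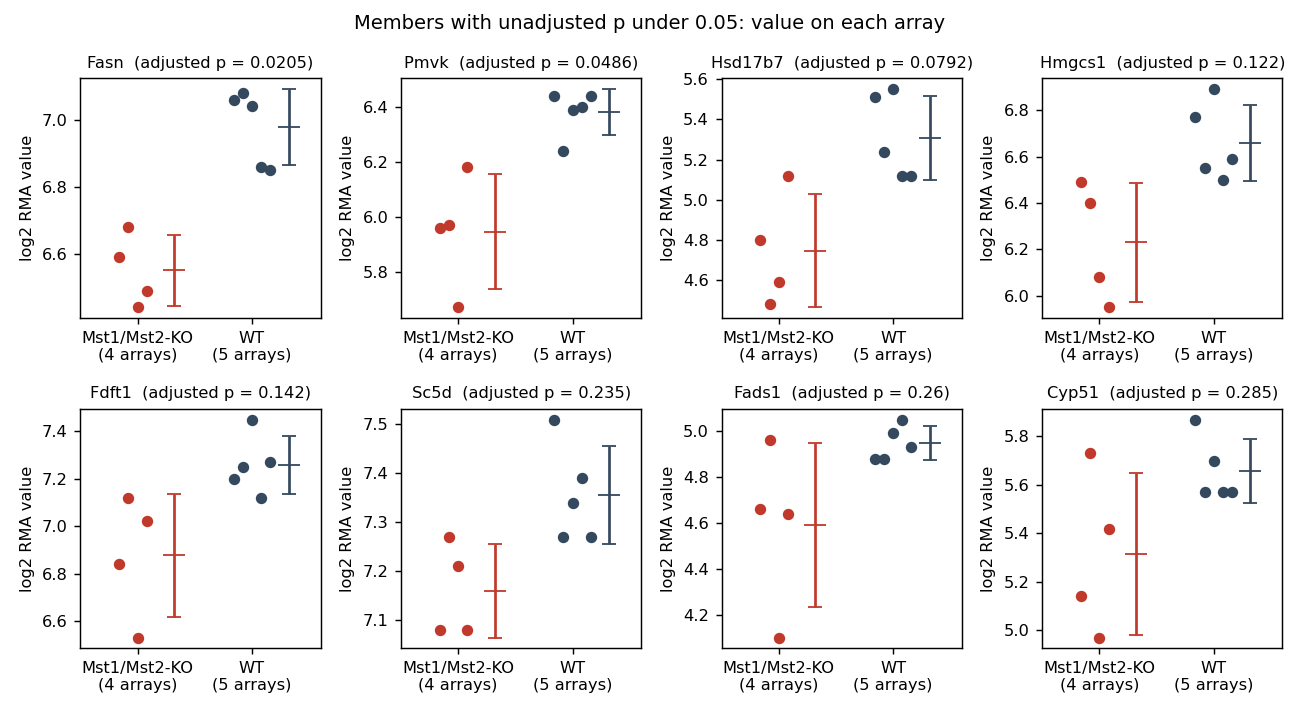
Value on each array (points, log2 RMA) with mean ± SD (bars) for the 8 members with an unadjusted limma p under 0.05, KO arrays left of WT arrays. KO and WT points do not overlap for Fasn, Pmvk and Hmgcs1, and touch or overlap for the other 5. Each panel has its own vertical scale, which does not start at 0.

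The enzymes that supply Fasn showed little difference. Acly, which makes cytosolic acetyl-CoA from citrate, had values of 6.88, 6.99, 7.13 and 7.17 on KO arrays, and WT arrays lay tightly between 7.15 and 7.18. Its difference was -0.13 (limma adjusted p = 0.434). Acaca, the acetyl-CoA carboxylase that makes malonyl-CoA, averaged 5.44 ± 0.25 in KO cells and 5.48 ± 0.089 in WT cells, with a 95% interval of the difference from -0.28 to 0.20. The elongases Elovl5 (0.03) and Elovl6 (0.13) had positive differences, each with an interval that spans 0.

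Desaturases were mixed. Fads1, the delta-5 desaturase of polyunsaturated fatty acids, had values of 4.66, 4.96, 4.10 and 4.64 on KO arrays and 4.88, 4.88, 4.99, 5.05 and 4.93 on WT arrays. KO array 2 lay among the WT values, and the difference was -0.36 ± 0.14 (SE; limma adjusted p = 0.26). Without KO array 3, the lowest, it was -0.19. Fads2, the delta-6 desaturase, averaged 2.86 in KO and 3.08 in WT cells. It was the 1 member with a mean under the midpoint of the array (median 4.047), so its signal may not exceed background.

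Scd1, the stearoyl-CoA desaturase that makes oleate, had the largest positive difference of the set (0.54, 95% interval from -0.09 to 1.17, limma adjusted p = 0.426). Its values were 4.99, 4.62, 4.61 and 5.32 on KO arrays and 5.29, 4.34, 4.43, 3.96 and 3.71 on WT arrays. The highest values were on KO array 4 and WT array 1, and the WT range of 1.58 was wider than the difference. Closely related Scd genes exist, and binding of their transcripts by the probes was not tested.

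B cell markers were compared on the same arrays. The mean log2 value of 7 measured B cell markers (of 8 listed) was 5.00, 4.91, 4.65 and 5.38 on KO arrays and 5.18, 4.70, 4.70, 4.40 and 4.45 on WT arrays, so it too was highest on KO array 4 and WT array 1. Taken singly, 4 of the 7 (Cd79b, Ms4a1, Pax5 and Cd22) had their highest values on that pair of arrays. None of the 7 passed in either direction, and 1 of them had a mean below the median of all probe sets. Ms4a1 (CD20), singled out from the list after its values were seen, was 4.93, 4.66, 4.39 and 5.33 on KO arrays and 5.11, 4.54, 4.52, 3.96 and 3.81 on WT arrays. Without WT array 1 the Scd1 difference was 0.78 (limma adjusted p = 0.12). The part of B cell transcripts in the Scd1 values was not tested.

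**Figure D5:**
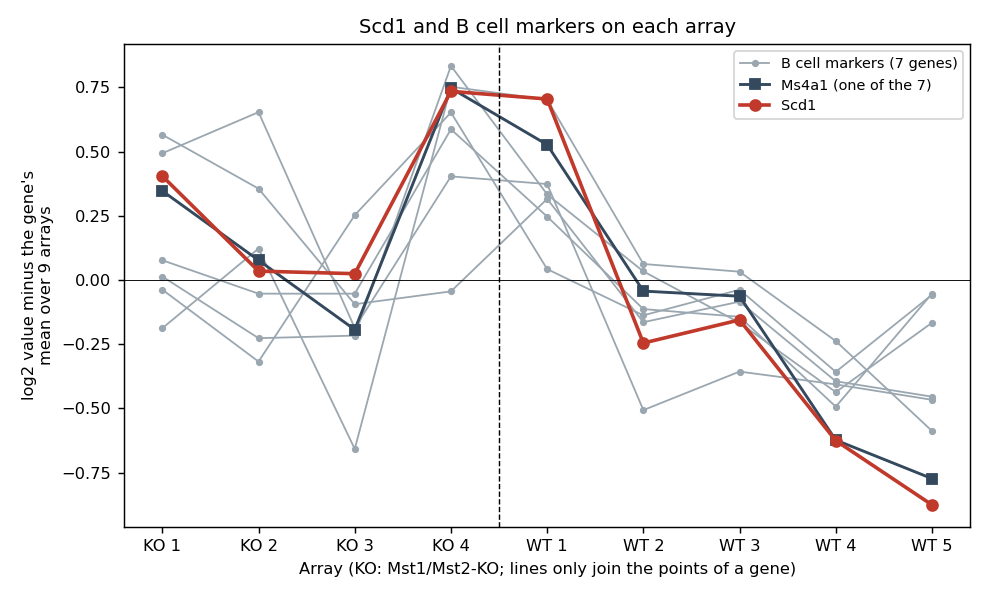
Scd1 (red), Ms4a1 (dark) and the other B cell markers (grey) on each array, as log2 value minus the gene's own mean over 9 arrays, KO arrays left of WT arrays. Scd1 and Ms4a1 are both highest on KO array 4, next highest on WT array 1 and lowest on WT array 5.

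Regulators and transporters had small differences. All 8 were negative, against 49.3% of all genes, and ran from -0.23 to -0.0056 with a median of -0.11. Scap and Insig2 turned positive in some alternatives. At an unadjusted p under 0.05, 0 were lower, against 9.8% of all genes, and 0 were higher, against 5.06%. Srebf2, the SREBP that chiefly drives sterol genes, was 8.28, 8.65, 8.40 and 8.36 on KO arrays and 8.46, 8.45, 8.74, 8.51 and 8.47 on WT arrays. KO arrays 1, 3 and 4 lay below every WT value and KO array 2 within the WT range (difference -0.10, 95% interval from -0.31 to 0.10). Srebf1, which chiefly drives fatty acid genes, averaged 6.14 ± 0.071 in KO cells and 6.23 ± 0.18 in WT cells, where WT array 3 (6.56) stood above the rest. Scap, the SREBP escort, averaged 7.59 in both groups, and its second probe set differed by 0.02.

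Insig1, which retains SCAP and is itself an SREBP target, had values of 8.06, 7.48, 7.58 and 7.57 on KO arrays and 8.44, 7.97, 8.04, 7.70 and 7.37 on WT arrays. All 4 KO values lay within the WT range of 1.07, so the difference of -0.23 was smaller than the spread in WT cells. It was -0.10 without WT array 1 and -0.37 without WT array 5. Insig2, its partner that is not a typical SREBP target, differed by -0.05. Stard4, a cytosolic sterol carrier, averaged 5.77 ± 0.15 in KO cells and 5.89 ± 0.13 in WT cells.

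Abca1 and Abcg1, cholesterol exporters induced by the oxysterol receptors LXR, had differences of -0.14 and -0.16. Abca1 was 6.08, 6.01, 6.30 and 5.65 on KO arrays and 6.11, 6.33, 6.10, 6.11 and 6.11 on WT arrays. Abcg1 was 6.99, 6.88, 6.98 and 6.56 on KO arrays and 6.98, 7.02, 7.14, 6.95 and 6.98 on WT arrays. KO array 4 was the lowest of all arrays for both, and neither gene passed (limma adjusted p = 0.648 for Abca1 and 0.48 for Abcg1). Without that array the differences were -0.02 for Abca1 and -0.06 for Abcg1. KO array 4 also had the highest mean of 10 myeloid markers (5.33, against 4.05 to 4.45 on the other KO arrays and 3.95 to 4.62 on WT arrays). S100a8 (8.90), S100a9 (8.41), Lyz2 (7.36), Cd14, Clec7a and Itgax were highest on that array. Csf1r, Cd68, Adgre1 and Fcgr1 were highest on other arrays. The part of myeloid cells was not tested.

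Beyond the set, 90 of 101 further genes of neighbouring lipid steps were measured, and 3 (3.33%) fell, against 1.89% of all genes. None rose, against 0.428%, and 87 did not pass. The median difference of the 90 was -0.08, against 0.0023 over all genes, and 62.2% of their differences were negative, against 49.3%. At an unadjusted p under 0.05, 21 of the 90 (23.3%) were lower, against 9.8% of all genes and 25.0% of the members. Among genes above the median of all probe sets that share was 16.8%. At that threshold 5 of the 90 were higher, where 5.06% of all genes were. Of 20 measured genes of fatty acid activation, elongation and precursor supply, 1 (5.0%) passed as lower, against 1.89% of all genes. That gene was Hacd3, which fell 1.80-fold. Hacd3, a dehydratase of the elongation cycle, was 6.46, 7.05, 6.30 and 6.83 on KO arrays, against 7.51, 7.82, 7.22, 7.41 and 7.59 on WT arrays, with no overlap (limma adjusted p = 0.025). It was called in 3 of 9 fits that each left out an array. Elovl7, an elongase of the same list, named here after its values were seen, had the largest positive difference among these further genes and did not pass (1.1, 95% interval from 0.52 to 1.68, limma adjusted p = 0.0606). Its values were 5.00, 4.61, 4.34 and 3.39 on KO arrays and 3.07, 3.24, 3.43, 3.11 and 3.32 on WT arrays. KO arrays 1 to 3 lay above every WT value and KO array 4 within the WT range, and all WT values lay under the array's midpoint of 4.047.

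Of 15 measured genes of SREBP escort and processing, 1 (6.67%) passed as lower, against 1.89% of all genes. At an unadjusted p under 0.05, 4 (26.7%) were lower, against 9.8% of all genes, and 0 were higher, against 5.06%. The gene that passed was Sar1b, which fell 1.36-fold. Sar1b is a small GTPase of the COPII coat, which forms the vesicles that leave the endoplasmic reticulum. It averaged 7.41 ± 0.18 in KO cells (SD, n = 4) and 7.85 ± 0.048 in WT cells (SD, n = 5), with a limma adjusted p of 0.0264, and it was called in 2 of 9 fits without 1 array. The proteases Mbtps1 (0.007) and Mbtps2 (-0.12), which cut SREBPs in the Golgi, did not pass.

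Fatty acid oxidation, the opposing pathway, also leaned lower. Of 19 measured genes 17 (89.5%) had negative differences, against 49.3% of all genes, with a median of -0.16, against 0.0023. As lower, 1 of the 19 (5.26%) passed, against 1.89% of all genes. At an unadjusted p under 0.05, 5 of the 19 (26.3%) were lower, against 9.8% of all genes, and 0 were higher, against 5.06%. Among genes above the median of all probe sets, 16.8% were lower at that threshold, and the median difference was -0.04. Hadh, the mitochondrial dehydrogenase for short-chain hydroxyacyl-CoA, had values of 7.03, 7.16, 6.96 and 6.84 on KO arrays and 7.94, 7.77, 7.68, 7.68 and 7.61 on WT arrays. Hadh was 1.67-fold lower in KO cells (limma adjusted p = 0.0026) and passed in all 18 alternatives. The difference between synthesis and oxidation genes was not tested.

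In the branch that makes and attaches prenyl groups, 0 of 14 measured genes passed. Over all genes, 1.89% passed as lower and 0.428% as higher, which is also the background for the sterol handling and LXR counts below. The 2 prenyl genes with the smallest p were Pggt1b, the catalytic subunit of the prenyltransferase GGTase-I (6.14 ± 0.18 in KO, 6.58 ± 0.16 in WT, limma adjusted p = 0.0649), and Fnta, the subunit it shares with farnesyltransferase (5.75 ± 0.33 in KO, 6.18 ± 0.11 in WT, limma adjusted p = 0.152). Sterol handling had 0 of 15 past the threshold and a median of 0.02. Gramd1a, an endoplasmic reticulum protein that takes up sterol at the plasma membrane, was 8.78 ± 0.041 in KO and 8.42 ± 0.16 in WT cells (limma adjusted p = 0.051). Npc1, the lysosomal cholesterol exporter, was 6.22 ± 0.26 in KO and 5.79 ± 0.14 in WT cells (limma adjusted p = 0.11), and its second probe set differed by 0.52. KO values lay above WT values without overlap for these 2 of the 15, against 1.76% of all genes. None of the 15 lay lower without overlap, as 4.4% of all genes did. Among 7 LXR-related genes 0 passed, with Ncoa1, a nuclear receptor coactivator (difference -0.37, limma adjusted p = 0.0704), and Abca7, a lipid transporter (0.39, 0.0827), nearest to it.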

How the data were processed

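One Affymetrix whole-transcript array was used per sample. Per the submitters' processing notes, the deposited log2 values came from RMA (background correction, quantile normalisation and probe summary) run in Expression Console 1.1 by Affymetrix. NuGEN kits amplified 1 to 20 ng of RNA, per the labels. The table held 41345 probe sets, of which 23521 had 1 symbol in the platform annotation, giving 22180 genes. The number of arrays limits the precision, and no detection call was used.

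KO and WT arrays were compared with limma 3.58.1 in R 4.3.3 (lmFit and eBayes, two-sided, Benjamini-Hochberg over all genes, threshold 0.05, no filter on dim genes). The fit was also run on simulated data, whose outcome is not given here and backs no result above. Members, lists and tests were chosen with earlier results of these data known. Further pathway genes were named by rule: up to 4 passing per list, or the 2 with the smallest p. Elovl7, Mbtps1 and Mbtps2 were named outside that rule. The labels do not say whether samples were separate animals, so the p-values reflect only the spread among these arrays, which may be technical. Alternatives were a replicate block, a dim filter, other probe-set rules and scalings, other variance and weight settings, a heat shock covariate and leaving out each array. Same-numbered arrays were not taken as pairs: their deviations correlated between -0.115 and 0.042.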

Additional observations from a re-analysis of the deposited data

Results flagged for a closer look

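Single arrays that stood apart from the others of their group were sought in 64 groups of values (32 members in KO and in WT cells), and 9 were found, where chance alone gives about 1 in 20. In WT cells, array 3 was high for Srebf1 (6.56, next 6.18) and Srebf2 (8.74, next 8.51) and low for Mvd (5.25, next 5.63). WT array 2 was low for Pmvk (6.24, next 6.39) and high for Abca1 (6.33, next 6.11). WT array 1 was high for Acaca (5.63, next 5.45), and WT array 4 low for Tm7sf2 (5.65, next 5.78). In KO cells, array 1 was high for Insig1 (8.06, next 7.58), and array 4 was low for Srebf1 (6.04, next 6.18, the value of the other 3 arrays). Other arrays of a group often share near-equal values of a gene here (4 WT arrays for Abca1, 3 KO arrays for Srebf1), and small gaps then stand out.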

How the results depend on the processing

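Under 18 alternatives (9 of which left out 1 array each), 25 of 32 members kept their direction (Fads2 was not fitted with dim genes left out), and the median difference of members stayed negative in each, from -0.17 to -0.09. Against 2 members lower at an adjusted p under 0.05, there were 0 with the replicate number as a block (178 genes in all, against 515 without it), 1 with each probe set fitted alone, median centring, quantile normalisation, trend and robust settings or the heat shock covariate, and 0 to 3 when 1 array was left out. With dim genes left out there were 3, Hsd17b7 joining, and the share of all fitted genes that passed as lower was 5.03%, against 1.89%. Against 8 lower at an unadjusted p under 0.05, quantile normalisation gave 5, with 1 higher (Mvd), where 35.7% of all called genes were higher, against 18.4% in the deposited scaling. Leaving out 1 array gave 6 to 12 lower and 0 to 1 higher. Further pathway genes lower numbered 6 with dim genes left out, 5 with array weights and 1 to 8 without 1 array, against 3. The direction turned only in 7 members with differences of 0.13 or less in size. Fdps was -0.06 with the block and -0.08 to 0.15 without 1 array. Scap was 0.0058 with the mean of probe sets, 0.07 after quantile normalisation and -0.04 to 0.01 without 1 array. Acaca was 0.04 after quantile normalisation, 0.01 with array weights and -0.13 to 0.07 without 1 array. Insig2 was 0.02 after quantile normalisation and -0.10 to 0.0038 without 1 array, Elovl5 -0.02 to 0.12, Elovl6 -0.001 to 0.28 and Tm7sf2 -0.08 to 0.12. The cause of these changes was not tested. Of the further genes, Sar1b lost its call with the block (adjusted p = 0.11). Both calls among the members, Fasn (limma adjusted p = 0.0641) and Pmvk (0.171), were lost with the block too.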
